A study of Mus musculus with 8 samples.

Results

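The genes of 10 bile acid and organic anion transporters were compared between the livers of wild-type (WT) mice and of mice that lack both liver X receptors (LXRDKO). They were the rows of the deposited RNA-Seq table whose symbol is Slc10a1, Slco1a1, Slco1a4, Slco1b2, Slco2b1, Abcb11, Abcc2, Abcc3, Abcc4 or Slc51b, 10 of the 25010 genes listed. Each group held 2 mice, with 1 library per mouse. All 4 mice had a C57BL/6 background, were 8 weeks old, had been fasted for 4 to 6 h and gave tissue from the left liver lobe. The LXRDKO mice lack LXRα, the product of Nr1h3, and LXRβ, the product of Nr1h2, in every cell type, so the comparison is not of hepatocytes alone. Values are normalized counts, that is, reads on a gene divided by 1 size factor per library.

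Hepatocytes draw bile acids, bilirubin, steroid conjugates and many drugs from portal blood across their basolateral membrane and secrete them across the canalicular membrane into bile. Uptake rests on the sodium-coupled carrier NTCP, encoded by Slc10a1, and on sodium-independent organic anion transporting polypeptides, encoded by Slco genes. Secretion into bile rests on ATP-driven pumps, chiefly BSEP for bile salts and MRP2 for conjugated anions. MRP3, MRP4 and the OSTα-OSTβ exchanger return anions from the hepatocyte to blood, a route known to gain weight in cholestasis. The farnesoid X receptor FXR, encoded by Nr1h4, senses bile acids, and the receptors CAR and PXR sense foreign compounds and regulate some of these carriers.

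Slco1a4 was the only transporter whose difference passed any of 3 tests across all genes (limma, DESeq2 and edgeR) with all livers in the fit, and it passed with DESeq2 alone. It was higher in both LXRDKO livers, at a mean of 7014 ± 726 (SD, n = 2) against 2335 ± 924 normalized counts in WT. Slc10a1, Slco2b1, Abcb11, Abcc2 and Abcc4 were lower in LXRDKO livers without overlap, with LXRDKO means from 0.553 to 0.820 times the WT means, and none of these differences passed the adjusted threshold of any of these tools. Slco1a1, Slco1b2 and Abcc3 overlapped between the genotypes. Slc51b, a subunit of the exchanger that carries bile acids out of intestinal cells, was read too rarely to be tested. The main test was limma on log2(normalized count + 1) over the 15578 genes whose mean reached 10 normalized counts, which 9 of the 10 transporters passed.

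Over the 9 tested transporters, 7 estimates were lower in LXRDKO and 2 higher, and their median log2 fold change was −0.28 against −0.0046 over all genes tested. With limma 0 of the 9 passed an adjusted P of 0.05, where 0.321% of all genes tested did, and 6 of 9 had an unadjusted P under 0.05 (1 higher and 5 lower) against 13.3% of all genes. With DESeq2 1 of 9 passed against 3.59% of its genes, and with edgeR 0 of 9 against 0.311%. The groups did not overlap in 5 of 9 with LXRDKO lower, against 23.0% of all genes, and in 1 of 9 with LXRDKO higher, against 21.7%. With 2 livers against 2, an exact two-sided permutation test of 1 gene cannot give a P under 0.333, so these P values rest on the spread that the tools share across genes.

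The promoter sequences show how the Slco1 genes, which lie side by side on mouse chromosome 6, differ upstream of their starts, and how Abcb11, the classical FXR target, compares with them. Shown are the 250 bases before the annotated start from RefSeq on GRCm38.p6, read 5′ to 3′ on the strand of the gene. They are chr6:141629268-141629517 on the plus strand for Slco1b2 and, on the minus strand, chr6:141856221-141856470 for Slco1a4, chr6:141946963-141947212 for Slco1a1 and chr2:69342617-69342866 for Abcb11. Capitals mark matches on either strand to the nuclear receptor half-site AGGTCA, its variant AGTTCA known from CAR and PXR elements, and the NRF2 core TGACNNNGC.
Slco1b2: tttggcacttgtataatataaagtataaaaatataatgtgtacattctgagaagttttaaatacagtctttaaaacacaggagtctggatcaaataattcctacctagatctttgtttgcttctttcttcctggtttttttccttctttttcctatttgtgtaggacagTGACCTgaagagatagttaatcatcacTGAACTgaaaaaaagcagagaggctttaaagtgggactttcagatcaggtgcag
Slco1a4: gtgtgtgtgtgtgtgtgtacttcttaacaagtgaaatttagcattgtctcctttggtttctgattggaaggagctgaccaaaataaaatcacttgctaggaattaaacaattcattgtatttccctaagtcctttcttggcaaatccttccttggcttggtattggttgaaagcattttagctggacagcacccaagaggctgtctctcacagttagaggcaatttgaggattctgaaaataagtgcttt
Slco1a1: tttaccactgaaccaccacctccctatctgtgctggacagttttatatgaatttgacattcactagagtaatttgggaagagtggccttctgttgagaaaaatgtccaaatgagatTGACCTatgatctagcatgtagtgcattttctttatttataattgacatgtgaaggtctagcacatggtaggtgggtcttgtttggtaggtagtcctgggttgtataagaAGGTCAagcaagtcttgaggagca
Abcb11: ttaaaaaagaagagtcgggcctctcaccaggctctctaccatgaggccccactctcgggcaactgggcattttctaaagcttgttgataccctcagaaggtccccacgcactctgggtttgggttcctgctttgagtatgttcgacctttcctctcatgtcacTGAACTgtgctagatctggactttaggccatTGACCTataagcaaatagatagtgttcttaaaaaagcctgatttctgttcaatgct

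The Slco1a4 window holds none of these letters. Slco1b2 carries AGGTCA on the opposite strand 81 bases before the start and AGTTCA on the opposite strand 54 bases before it. Slco1a1 carries AGGTCA at 134 and 24 bases before the start, and Abcb11 carries AGGTCA at 56 and AGTTCA at 87 bases before it. Positions count back to the first base of each match as printed. Over 32851 promoter windows of the same length, AGGTCA was found in 14.0%, AGTTCA in 11.8% and TGACNNNGC in 10.2%. The direct repeat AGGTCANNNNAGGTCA, the LXR type of element, and the inverted repeat AGGTCANTGACCT, the FXR type, contain the half-site and were found in 0.015% and 0.006%. Neither was found as exact letters in any of the 13 windows of the 9 transporters with an entry. Abcc3 has no entry. Exact matches are so rare that their lack here says little, and elements with changed letters were not searched for. The Abcb11 window reads aggccatTGACCT, which is close to the inverted repeat but not an exact match. These matches are descriptions of letters and not of binding.

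The depth of the libraries lay between 55772659 and 72842744 reads on genes, and between 21716 and 22721 genes had reads. Both targeted receptor genes fell in the LXRDKO livers. Nr1h3 had 5785 and 5322 normalized counts (WT) against 1712 and 1826 (LXRDKO), and Nr1h2 had 2987 and 3110 against 925 and 1003 (adjusted P = 0.0147 for both, limma). Counts per gene do not show from which exons the remaining reads came. Hepatocyte markers were abundant in each liver, with summed levels of 7386150 to 8738080 normalized counts over 13 genes. The labels give no sex. The summed level of 5 sex chromosome genes was 9176 to 10569 normalized counts, with Xist at 5.70 to 10.4 and Ddx3y, a Y-linked gene, at 4242 to 4916 in every liver.

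Per kb of exon, which allows genes to be compared, the WT levels spanned from 16740 normalized counts per kb for Slc10a1 to 12.2 for Slc51b. Slc10a1 was followed by Slco1b2 at 12394, Abcc2 at 7526, Abcb11 at 7337, Abcc3 at 5693, Slco1a1 at 5270, Slco2b1 at 2857, Slco1a4 at 364 and Abcc4 at 49.9 normalized counts per kb. The WT ranges of Abcc2 and Abcb11 overlapped, as did those of Abcc3 and Slco1a1, so these neighbours are not ordered. In LXRDKO livers Slco1a4 had 1094 normalized counts per kb, still below Slco2b1 at 2181. The lowest value of the 7 most abundant transporters in any liver was 12494 normalized counts, for Slco2b1, at which counting error is small beside the differences given here.

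**Figure D1:**
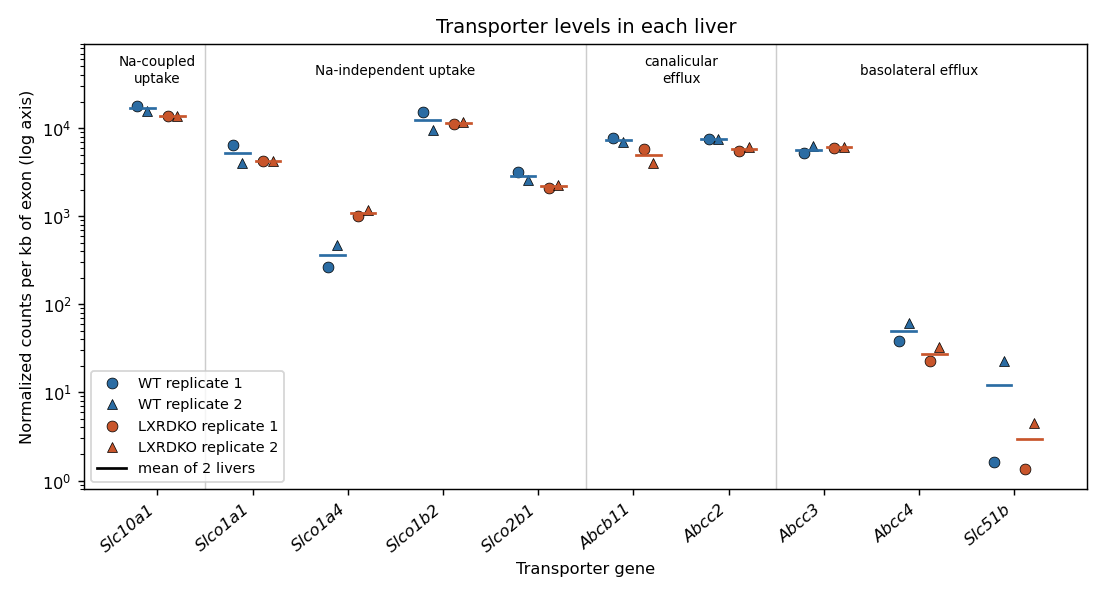
Normalized counts per kb of exon (log axis) of the 10 transporter genes in each of the 4 livers, with the mean of each genotype as a bar. Slco1a4 stands out with both LXRDKO livers (1013 and 1174 per kb) above both WT livers (262 and 466 per kb), while most others lie close together.

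Of the uptake carriers, Slc10a1 (ENSMUSG00000021135), on chromosome 12 (80953183 to 80968705 of GRCm38, the assembly of all gene positions given here), had 38870 and 34752 normalized counts (WT) against 30141 and 30235 (LXRDKO). The LXRDKO values were lower than either WT value and close to each other. The log2 fold change was −0.28 (SE 0.11, 95% interval −0.56 to −0.01, adjusted P = 0.365, limma).

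Slco1a4 (ENSMUSG00000030237) encodes OATP1A4, a carrier of bile acids, steroid conjugates and cardiac glycosides that is known in mouse liver as a target of CAR and PXR and as more abundant in females. It lies on chromosome 6 from 141805440 to 141856199. It had 1681 and 2988 normalized counts (WT) against 6500 and 7527 (LXRDKO). The groups did not overlap, and the WT livers differed from each other more than the LXRDKO livers did. The ratio of the means was 3.00, and the log2 fold change was 1.64 (SE 0.27, 95% interval 0.98 to 2.31, adjusted P = 0.108, limma). With DESeq2 on the reads the log2 fold change was 1.59 with an adjusted P of 9.72e-08, and with the quasi-likelihood test of edgeR it was 1.59 with an adjusted P of 0.123. Without WT replicate 1 the limma estimate was 1.23 and without WT replicate 2 it was 2.06. These were the ends of the range with each liver left out in turn. In such fits the lone liver is taken to vary like the pair of the other genotype. Of all genes tested, 1.59% had a larger absolute log2 fold change.

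Slco1b2 (ENSMUSG00000030236) encodes OATP1B2, the liver-specific carrier of bilirubin and bile acids, and lies on chromosome 6 from 141629518 to 141686646. It had 75249 and 46930 normalized counts (WT) against 55338 and 57231 (LXRDKO), so both LXRDKO livers lay between the WT livers. The log2 fold change was −0.08 (SE 0.23, 95% interval −0.66 to 0.50, adjusted P = 0.929, limma), and without WT replicate 1 it was 0.26. Slco1a1 (ENSMUSG00000041698) encodes OATP1A1, a carrier known as male-predominant in mouse liver, and lies on chromosome 6 from 141907282 to 141946962. It had 34159 and 21453 normalized counts (WT) against 22105 and 22600 (LXRDKO). Here too the LXRDKO livers lay between the WT livers. The log2 fold change was −0.28 (SE 0.22, 95% interval −0.83 to 0.27, adjusted P = 0.665, limma), and without WT replicate 1 it was 0.06.

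Slco2b1 (ENSMUSG00000030737) encodes OATP2B1, a widely expressed carrier of sulfated steroids and drugs, on chromosome 7 from 99657804 to 99711340. It had 18805 and 15241 normalized counts (WT) against 12494 and 13497 (LXRDKO), without overlap. The log2 fold change was −0.38 (SE 0.13, 95% interval −0.71 to −0.06, adjusted P = 0.311, limma), and without WT replicate 1 it was −0.23. Antisense genes overlap it, of which Gm15635 had 116 to 180 normalized counts, and the strand setting of the counting is not given in the sources used here.

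Within the 4 Slco transporters, the summed level per kb differed in its make-up between the livers. Slco1a4 made up 1.04% and 2.80% of it in WT against 5.47% and 6.07% in LXRDKO. Slco1b2 held 57.3% to 60.7% in all livers and remained the main carrier transcript. Slco1a1 held 25.7% and 24.5% in WT and 22.6% and 22.2% in LXRDKO. The ratio of Slco1a1 to Slco1a4 per kb was 24.7 and 8.73 in WT and 4.13 and 3.65 in LXRDKO.

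The Slco1 genes form a cluster that spans 798.6 kb. Slco1c1, Slco1a6 and Slco1a5, its other named carriers, had at most 5.70 normalized counts in any liver, too few for a test. Gm30784, a lincRNA gene between Slco1a4 and Slco1a1 named here after its values were seen, had 289 and 351 normalized counts (WT) against 514 and 487 (LXRDKO). It was higher in both LXRDKO livers, with a log2 fold change of 0.65 (SE 0.16, adjusted P = 0.205, limma). So was Gm6614, another gene of the cluster, with 27.4 and 18.7 normalized counts (WT) against 27.5 and 32.2 (LXRDKO). Of all genes tested, 21.7% were higher in both LXRDKO livers. Paralogs can share reads. Of the 6407 distinct words of 50 bases, the read length, in Slco1a4 transcripts of GENCODE M21, 1.61% occurred exactly in another gene, mostly Slco1a5 and Slco1a1. The share was 1.64% of 5321 words for Slco1a1 and 0 for Slco1b2.

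**Figure D2:**
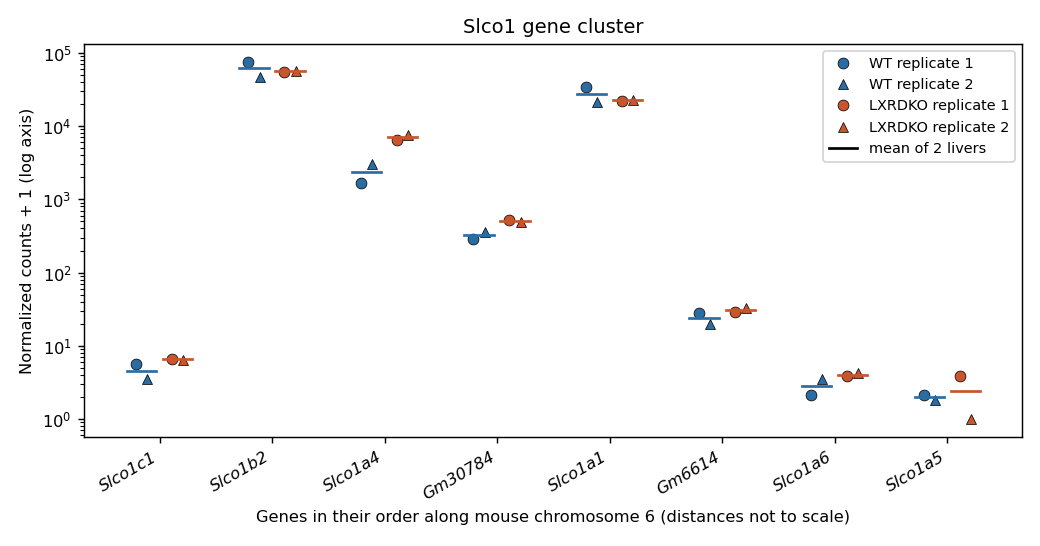
Normalized counts plus 1 (log axis) of 8 genes in their order along the chromosome 6 cluster, in each liver, with genotype means as bars. Slco1a4, the neighbouring Gm30784 and, at low counts, Gm6614, Slco1c1 and Slco1a6 were higher in both LXRDKO livers, as 21.7% of all genes tested were. Slco1b2, Slco1a1 and Slco1a5 overlapped between genotypes.

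The WT livers differed from each other in the carriers of the cluster. WT replicate 2 had less Slco1b2 (log2 difference from WT replicate 1 of −0.68) and less Slco1a1 (−0.67), and more Slco1a4 (0.83). The same liver was lower than WT replicate 1 in all 9 tested male-biased liver genes and higher in all 7 tested female-biased liver genes. Mup20 differed by only −0.02 on the log2 scale, and the share of all genes that went either way was not computed. Summed male-biased genes had 669714 and 404905 normalized counts (WT) against 670513 and 719322 (LXRDKO), and summed female-biased genes had 3392 and 9477 in WT against 4745 and 5758 in LXRDKO. The male-biased sums were mostly Serpina3k, with 512225 and 325135 (WT) against 527045 and 559051 (LXRDKO). In WT replicate 2 Acot3 gave 5475 of the female-biased sum. Of the tested male-biased genes 6 were higher and 3 lower in LXRDKO (median log2 fold change 0.31), and of the female-biased genes 5 were higher and 2 lower (0.33). No limma call was made in either list, and DESeq2 called 2 of the 9 male-biased genes, both lower, against 3.59% of its genes. In the male-biased list the smallest P values belonged to Cyp4a12b (log2 fold change −1.05, adjusted P = 0.119, limma), Cyp4a12a (−0.75) and Mup20 (0.31). In the female-biased list they belonged to Fmo2 (0.68, adjusted P = 0.276, limma), Cyp17a1 (−1.20) and Cyp2b9 (1.77). Cyp2b9 had 43.3 and 77.2 normalized counts (WT) against 588 and 67.5 (LXRDKO), so its groups overlapped and LXRDKO replicate 1 alone was high. The LXRDKO values of Slco1a4 lay above each WT liver, of which WT replicate 2 was the higher. The part of the difference between WT livers in the Slco1 results was not tested.

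**Figure D3:**
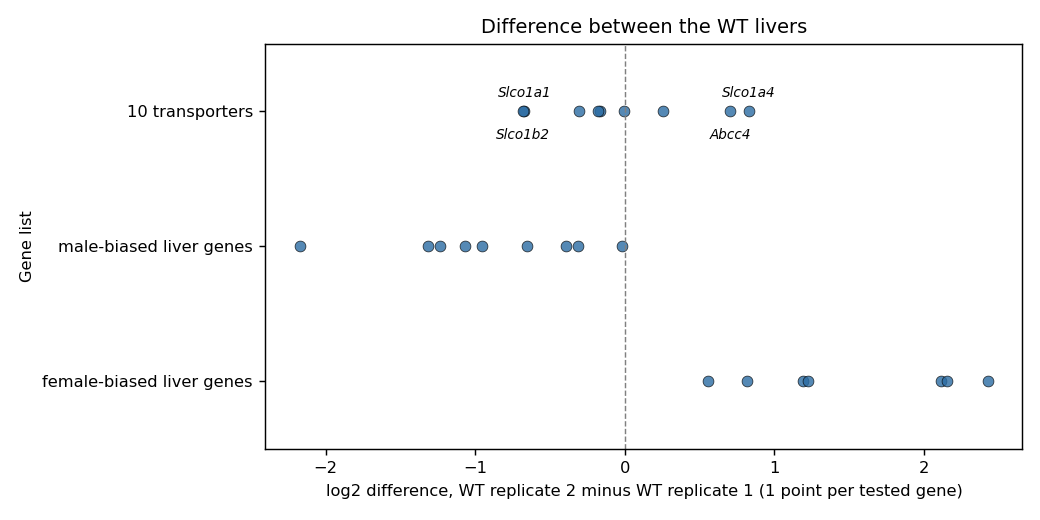
Log2 difference between WT replicate 2 and WT replicate 1 for the 9 tested transporters and for the tested male-biased and female-biased liver genes, 1 point per gene. All male-biased genes lie below 0 and all female-biased genes above it, with Slco1a1 and Slco1b2 on the lower side and Slco1a4 and Abcc4 on the higher side.

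Of the pumps of the canalicular membrane, Abcb11 and Abcc2 had lower values in both LXRDKO livers, and neither passed a test. Abcb11 (ENSMUSG00000027048) encodes BSEP, the bile salt export pump, on chromosome 2 from 69238282 to 69342616. It had 40091 and 35424 normalized counts (WT) against 30010 and 20579 (LXRDKO). The groups did not overlap, and LXRDKO replicate 2 was the lowest by a wide margin. The LXRDKO mean was 0.670 times the WT mean, with a log2 fold change of −0.60 (SE 0.20, 95% interval −1.09 to −0.11, adjusted P = 0.301, limma). DESeq2 gave an adjusted P of 0.0890. Without LXRDKO replicate 2 the limma estimate was −0.33. Gm13613, an antisense gene within Abcb11, had 23.6 to 38.9 normalized counts.

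Abcc2 (ENSMUSG00000025194) encodes MRP2, which exports bilirubin glucuronides and glutathione conjugates, on chromosome 19 from 43782192 to 43840740. It had 64267 and 64158 normalized counts (WT) against 46432 and 51728 (LXRDKO). The WT livers were nearly equal and both lay above the LXRDKO livers. The ratio of the means was 0.764, with a log2 fold change of −0.39 (SE 0.12, 95% interval −0.70 to −0.08, adjusted P = 0.290, limma), and DESeq2 gave an adjusted P of 0.0754. Summed per kb, both pumps had 15323 and 14404 normalized counts (WT) against 11274 and 10062 (LXRDKO). The ratio of Abcb11 to Slc10a1 per kb was 0.441 and 0.436 in WT, 0.425 in LXRDKO replicate 1 and 0.291 in LXRDKO replicate 2.

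The carriers of the basolateral efflux route did not share a direction. Abcc3 (ENSMUSG00000020865) encodes MRP3, which returns glucuronides to blood, on chromosome 11 from 94343295 to 94392997. It had 29574 and 35305 normalized counts (WT) against 34246 and 34381 (LXRDKO), so the LXRDKO livers lay between the WT livers. The log2 fold change was 0.09 (SE 0.13, 95% interval −0.23 to 0.40, adjusted P = 0.835, limma), and without WT replicate 1 it was −0.04. The ratio of Abcc3 to Abcb11 per kb was 0.666 and 0.900 in WT and 1.03 and 1.51 in LXRDKO.

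Abcc4 (ENSMUSG00000032849) encodes MRP4, which exports bile acids together with glutathione and is scarce in healthy liver, on chromosome 14 from 118482692 to 118706219. It had 242 and 396 normalized counts (WT) against 143 and 209 (LXRDKO), without overlap but with a wide spread in both groups. The ratio of the means was 0.553, with a log2 fold change of −0.83 (SE 0.31, 95% interval −1.61 to −0.06, adjusted P = 0.344, limma), which was −0.48 without WT replicate 2.

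Slc51b (ENSMUSG00000053862) encodes OSTβ, on chromosome 9 from 65412714 to 65422955. It had 1 and 19 reads in the WT livers and 1 and 3 reads in the LXRDKO livers. WT replicate 2 alone was high, and WT replicate 1 had as few reads as LXRDKO replicate 1. Pooled at the sequenced depth, the ratio of WT to LXRDKO was 4.83 with an exact 95% interval of 1.62 to 19.4 that covers counting error only and compares these libraries. Rasl12 overlaps Slc51b on the opposite strand and had 2.28 and 13.6 normalized counts (WT) against 2.14 to 3.80 (LXRDKO). Of the 660 distinct words of 50 bases in Slc51b transcripts, 6.5% occurred in Rasl12 on either strand. Whether reads of Rasl12 were counted for Slc51b was not tested. Slc51a, which encodes OSTα, the partner of OSTβ, had 17.0 to 20.4 normalized counts in the 4 livers.

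**Figure D4:**
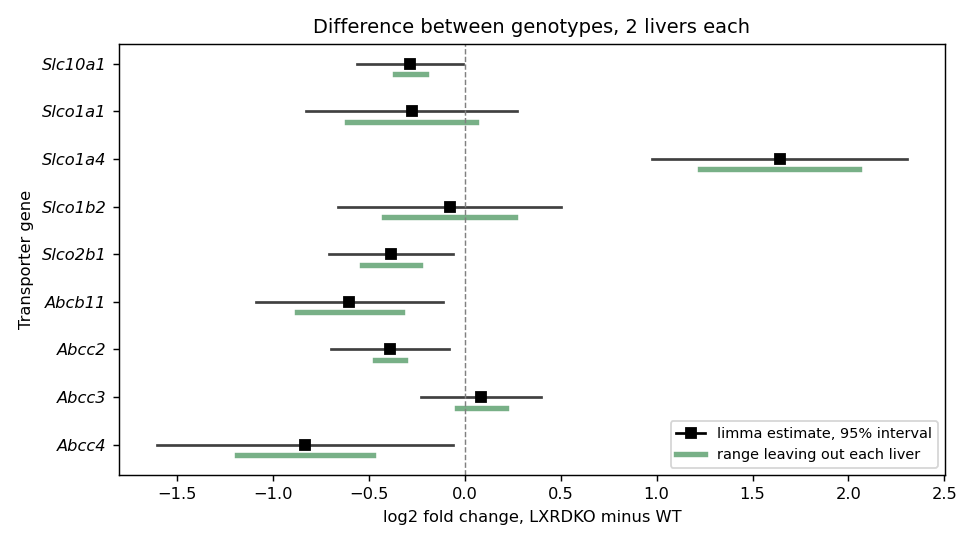
Log2 fold change of the 9 tested transporters, LXRDKO minus WT, as the limma estimate with its 95% interval (black) and the range when each liver is left out in turn (green). Slco1a4 lies at 1.64, while Slco1a1, Slco1b2 and Abcc3 cross 0 in both the interval and the range.

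Other transporters of bile acids and organic anions were taken from a list of 20 genes, of which 16 were tested. No limma call was made, 3 of 16 had an unadjusted P under 0.05, all lower, against 13.3% of all genes, and the median log2 fold change was −0.17. Slc10a2, the apical bile acid carrier of ileum and bile ducts, had 1903 and 2127 normalized counts (WT) against 1148 and 1294 (LXRDKO), a log2 fold change of −0.72 (adjusted P = 0.104, limma, and 6.51e-04, DESeq2). Slc17a2, an organic anion carrier, had a log2 fold change of −0.50 (adjusted P = 0.234, limma), and Slco2a1, the prostaglandin carrier, of −0.39 (adjusted P = 0.363, limma). Among 10 other canalicular transporters and flippases 5 were higher and 5 lower, with a median of −0.0021. Atp7b, the copper pump, had −0.40 (adjusted P = 0.163, limma), Abcb1b, a multidrug pump, 0.66 (0.294), and Abcb4, the phosphatidylcholine floppase, 0.15 (0.600). Among 10 genes of the canalicular scaffold and traffic, 3 were higher and 7 lower (median −0.13), with no limma call. Ezr had 0.66 (adjusted P = 0.139, limma, and 0.0246, DESeq2), with 344 and 351 normalized counts (WT) against 547 and 556 (LXRDKO). Whole liver does not show which cells the Ezr reads came from. Pdzk1, which tethers carriers to the membrane, had −0.41 (0.205, limma). Rdx, the radixin that anchors MRP2, had −0.26 (0.411, limma), at 13064 to 17165 normalized counts.

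Regulators of these genes were given from fixed lists as well. Of 12 genes of bile acid sensing and signalling, 10 were tested, with 5 higher, 5 lower and a median of 0.01. Nr1h4 itself had 12294 and 11718 normalized counts (WT) against 11986 and 12555 (LXRDKO). Nr0b2, the repressor SHP that FXR induces, was at 878 ± 251 in WT and 343 ± 82.9 in LXRDKO (SD, n = 2), a log2 fold change of −1.34 (adjusted P = 0.134, limma, and 8.49e-05, DESeq2). Hnf4a had 0.60 (adjusted P = 0.224, limma, and 0.0115, DESeq2). Whether the level of Nr0b2 has a part in that of Abcb11 was not tested.

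Of 20 enzymes known as targets of CAR, PXR or NRF2, 13 were higher and 7 lower, with a median of 0.09. Cyp2b10, the standard CAR target, rose from 423 ± 107 to 1962 ± 193 normalized counts (SD, n = 2), a log2 fold change of 2.23 (SE 0.20, adjusted P = 0.0280, limma). It was the 1 limma call of the list, where 0.321% of all genes tested were called. Gclc, an NRF2 target in glutathione synthesis, had −0.58 (adjusted P = 0.145, limma, and 0.00509, DESeq2), and Ugt1a6a −0.35 (0.235, limma). Cyp2b10, like Slco1a4, was higher in both LXRDKO livers, which held for 3 of the 20 enzymes against 21.7% of all genes. WT replicate 2 was above WT replicate 1 in 16 of the 20 enzymes, for which the share of all genes was not computed. A part of CAR in the level of Slco1a4 was not tested.

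The substrates of the pumps depend on synthesis and conjugation. Of 14 genes, 6 were higher and 8 lower (median −0.07), with no limma call. Cyp2c70, which makes muricholic acids, had −1.08 (adjusted P = 0.108, limma, and 4.76e-06, DESeq2), Cyp7a1, the rate-limiting enzyme of bile acid synthesis, 0.64 (0.127, limma, and 4.94e-04, DESeq2), and Amacr −0.34 (0.235, limma).

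**Figure D5:**
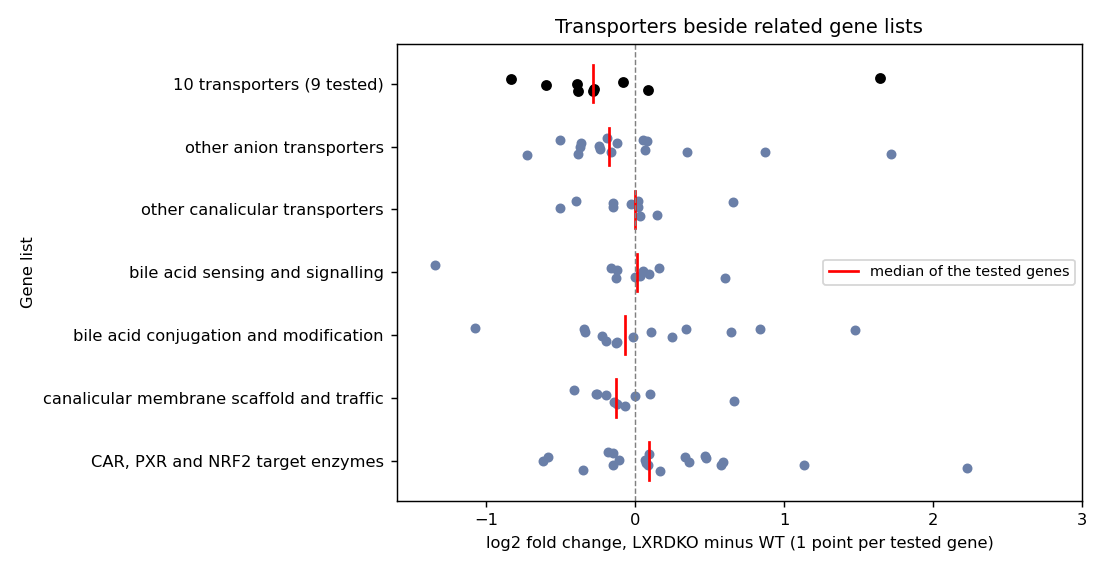
Log2 fold change, LXRDKO minus WT, of each tested gene in the transporters and in 6 related lists, with the median of each in red. The transporters have a median of −0.28, below the medians of the other lists, which run from −0.17 to 0.09.

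In whole liver a smaller number of cells of one type and less RNA per cell cannot be told apart. The median log2 fold change of the 13 hepatocyte markers was −0.05, with 5 higher and 8 lower and Hnf4a, Tat (0.65, adjusted P = 0.242, limma) and Cps1 (0.33) at the smallest P values. Of 11 cholangiocyte markers 9 were higher in both LXRDKO livers (median 0.68), where 21.7% of all genes were. The summed levels were 5442 and 7612 in WT and 7671 and 8927 in LXRDKO. These sums were mostly Spp1, with 1433 and 2907 (WT) against 3658 and 4300 (LXRDKO), and Anxa4. Anxa4 overlapped between genotypes, with 2963 and 3449 (WT) against 2724 and 3104 (LXRDKO). Krt23 had −1.30 (adjusted P = 0.127, limma), Epcam 1.25 (0.155) and Krt7 0.84 (0.266), and no limma call was made. Of 12 Kupffer cell and macrophage markers 9 were lower and 3 higher. Both LXRDKO livers were lower in 7 of them, against 23.0% of all genes. With limma 4 of the 12 were called, all lower, against 0.321% of all genes tested. Among them were Cd5l, Cd163 and Clec4f with log2 fold changes of −7.85, −4.87 and −2.93 (adjusted P = 5.20e-04, 0.0239 and 0.0267, limma). The sums were 16646 and 18434 against 11766 and 6994. Of 10 sinusoidal endothelial markers 9 were lower and 1 higher. Both LXRDKO livers were lower in 6 of the 10, against 23.0% of all genes. Kdr was the 1 limma call (log2 fold change −1.17, adjusted P = 0.0498, limma), where 0.321% of all genes tested were called. Gpr182 and Fcgr2b had −0.49 and −0.64, the median was −0.40, and the sums were 19968 and 17460 against 16557 and 12466. Of 10 stellate cell markers 9 were higher (median 0.46), with Dcn, Reln and Pdgfrb at 0.67, 0.50 and 0.48 (adjusted P = 0.145, 0.157 and 0.235, limma), and the sums were 14541 and 19109 against 20962 and 24040. No marker was at 0 in all livers. LXRDKO replicate 2, which had the lowest Abcb11, also had the lowest hepatocyte, Kupffer and endothelial sums and the highest cholangiocyte and stellate sums. The part of these shifts in the transporter values was not tested.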

How the data were processed

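RNA-Seq was run on 2 WT and 2 LXRDKO livers. The authors built stranded mRNA libraries, read 50 bp from a single end and mapped reads to mm10 with STAR 2.6.0c. The deposited signal is a normalized read count, in which the authors divided reads by DESeq2 size factors (0.877 to 1.18). The tool that counted reads and its strand setting are not given in the sources used here. All values (100%) were whole multiples of 1 read within 0.01, so reads were recovered.

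Log2(normalized count + 1) was compared with limma 3.58.1 (trend, Benjamini-Hochberg) in R 4.3.3 over genes whose mean reached 10. DESeq2 1.42.0 and edgeR 4.0.16 were run on the reads. This scale understates changes of low genes. The labels do not state separate litters or cages. They also do not say that replicate numbers pair the mice. The correlation of deviations between replicates was 0.00312 across genes, which cannot exclude a pairing. On simulated data for this comparison (15591 genes), limma called 47 of 100 genes changed by 1 and 86 of 100 changed by 2 on the log2 scale, with 10 unchanged genes and 0 wrong signs. Gene positions came from GENCODE M21 on GRCm38 and promoters from RefSeq.

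The transporters and gene lists were chosen with earlier results of these data known. Named genes were all 10 transporters, both receptors and, from each list, the 3 tested genes with the smallest limma P, and further genes (Nr1h4, Xist, Slc51a, neighbours and overlapping genes of the transporters, and those of the closing section) were named after their values were seen. One gene that this rule names is not reported here. Alternatives were other pseudocounts (0.5 and 8), filters, scalings, moderation, thresholds and the replicate block, and each liver left out. Chromatin accessibility was not analysed here.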

Additional observations from a re-analysis of the deposited data

How the results depend on the processing

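The limma count of 50 genes called became 25 when the required mean was 50, 1 without the trend, 90 with the replicate block, 567 with DESeq2 on the reads, 138 at a threshold of 0.10 and between 2 and 262 with each liver left out. The count of transporters called, 0, became 1 with the replicate block, 1 with DESeq2, 6 with an unadjusted P under 0.05 (chosen after seeing the data) and between 0 and 1 with each liver left out. The transporter called was Slco1a4 in the replicate block (adjusted P = 0.0335, limma), DESeq2 and the fits without a WT liver. The labels do not say that replicate numbers pair the mice.

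With each liver left out, the log2 fold change ran from −0.61 to 0.0592 for Slco1a1, from −0.42 to 0.26 for Slco1b2, from −0.0411 to 0.21 for Abcc3, from −0.0782 to 0.13 for Ddx3y and from −0.23 to 0.18 for Uty, and Uty had 0.0276 after scaling to the library total. The other 6 tested transporters kept their direction under every alternative run. Scaling to the library total moved the median of all genes by 0.05. With 1 to 19 reads per liver, depth limits Slc51b.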

Other observations

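Further genes of the same lists, named after their values were seen, separated the WT livers. Slc22a7, which encodes the organic anion transporter OAT2, had 1857 and 290 normalized counts (WT) against 3367 and 1739 (LXRDKO). Its log2 fold change of 1.72 was the highest of its list, with overlapping groups (adjusted P = 0.463, limma). Abcb1a, a multidrug pump of the canalicular membrane, had 153 and 474 in WT and 175 and 207 in LXRDKO. Cyp7b1, the oxysterol hydroxylase of the alternative route of bile acid synthesis, had 23124 and 5128 in WT and 30757 and 29891 in LXRDKO. Cyp8b1, which makes cholic acid, had 29444 and 16318 in WT and 35583 and 43226 in LXRDKO, a difference of 0.84 on the log2 scale (adjusted P = 0.309, limma). Por, the reductase that serves cytochromes P450, had 54673 and 73893 in WT and 87824 and 102130 in LXRDKO (adjusted P = 0.304, limma).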
